A study of Danio rerio with 6 samples.

Results

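The genes described here are transcription factors that direct macrophage and microglia fate: the PU.1 pair spi1a and spi1b, irf8, the C/EBP genes cebpa and cebpb, and runx1. They were chosen by symbol from a list of 8 names, and 6 of these are described here, out of 21860 genes in the table. RNA was sequenced from GFP-positive brain cells of zebrafish of the mpeg1-GFP line, in which macrophages of any kind as well as microglia are marked. All fish were 9 to 12 months old, of the TLF x AB strain, and bore the same reporter. The 6 libraries fall into 3 genotypes of 2 libraries each. Control fish were wild type, csf1ra-/- fish were mutant at both copies of csf1ra, and csf1ra-/-;b+/- fish (compound mutants below) also carried 1 mutant copy of csf1rb. Another label of the compound mutants names both receptors as mutant without giving the number of copies. The same kind of label calls both control libraries young and gives no age word for the mutant libraries. Nothing in the labels says whether a library came from 1 fish or from several, so the tests measure only the spread between these libraries, which may be technical.

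PU.1 is an ETS-family factor that opens and holds myeloid enhancers, and zebrafish have 2 genes for it. IRF8 binds beside PU.1 and is needed for macrophages and microglia to form, while C/EBP alpha and beta drive the granulocyte and monocyte programmes and inflammatory genes. RUNX1 is required for blood stem cells and acts upstream of PU.1 in mammals. In mammals PU.1 also activates the gene of the CSF1 receptor, the receptor mutated in these fish.

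The table held 4241988 to 15011963 reads per library. The compound mutant libraries were the deepest, at 15011963 and 13543998 reads, but held the fewest genes with reads, 18383 and 18047. The other libraries held 4241988 to 8028386 reads and 20119 to 21452 genes with reads. The part of this in low values of compound mutants was not tested. Values are given as signal, which is CPM computed by the authors on an effective library size, and in it 1 read was worth 0.0809 to 0.157. The effective size of control replicate 1 was 1.73 times its total reads, against 0.802 to 1.07 times in the other libraries. The macrophage markers apoeb, mpeg1.1 and ptprc were read in every library, with apoeb at 2622 to 11447 units of signal, mpeg1.1 at 618 to 3757 and ptprc at 159 to 573. Of the 6 genes, 5 held 367 to 14758 reads in each library, whereas runx1 held 0 to 42. All 6 entered the test, among 21316 genes that reached a signal of 1 in 2 or more libraries. The gene runx1 did so only through its higher libraries, both of them from mutants, and its differences are given with that limit.

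**Figure D1:**
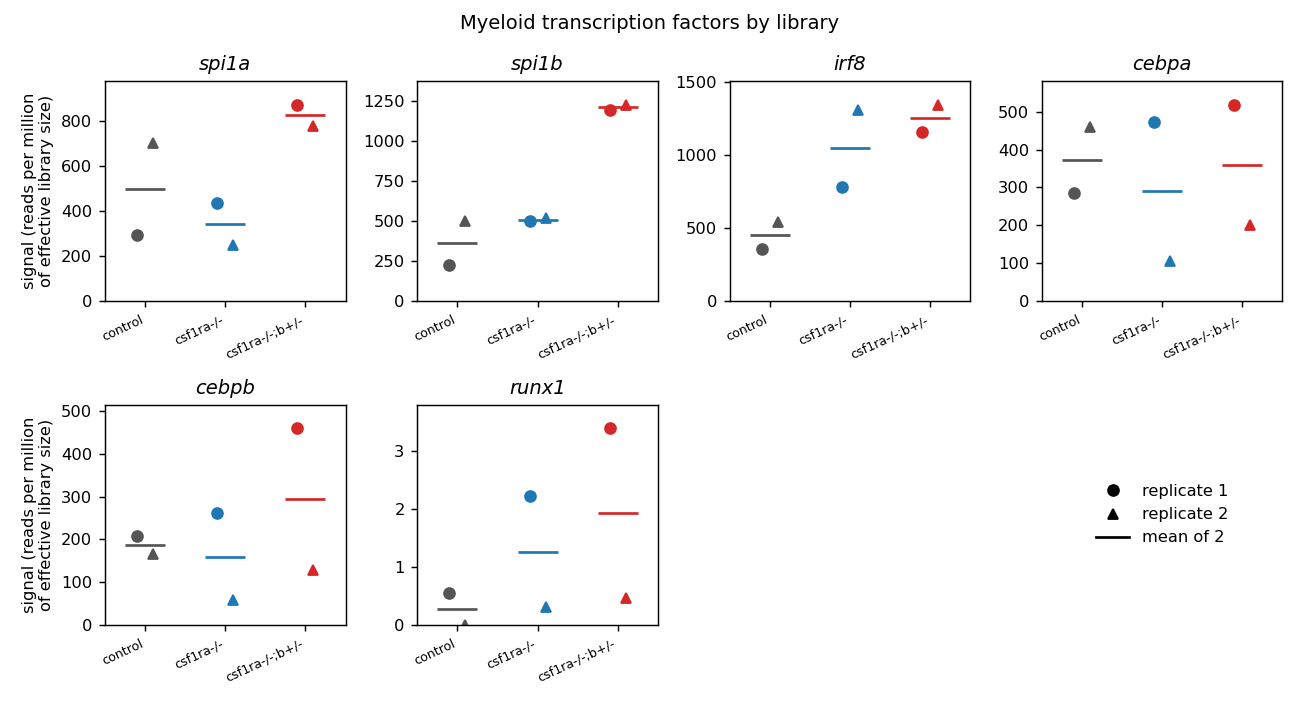
Signal (CPM on the effective library size, linear axes from 0) of each of the 6 factors in the 6 libraries, with circles for replicate 1, triangles for replicate 2 and lines for the mean of 2. For spi1b both compound mutant libraries (1194 and 1229) lie above the other 4, while for cebpa and cebpb the replicates of a mutant genotype lie far apart.

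None of the 6 factors passed the test in any of 4 comparisons, by limma at an adjusted p under 0.05 over all genes tested. Genes that passed made up 1.22% of those tested in compound mutants against control, 0% in csf1ra-/- against control, 0.00938% in compound mutants against csf1ra-/- and 0.113% for both mutant groups averaged against control. The same counts of 0 members came from edgeR on recovered reads. DESeq2 called 1 member, spi1b in compound mutants against control, where it called 17.0% of all genes. Unadjusted limma p-values under 0.05 were found for 1 member in csf1ra-/- against control (irf8), for 2 in compound mutants against control (spi1b and irf8), for 2 between the mutant groups (spi1b and spi1a) and for 2 with both mutant groups averaged (irf8 and spi1b). Over all genes that share was 10.2%, 26.8%, 12.8% and 20.1% in the same order. The comparisons with control share the 2 control libraries and are therefore not independent of each other.

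Transcripts of spi1b (ENSDARG00000000767), one of the PU.1 genes, stood at 225 and 499 units of signal in the controls, 502 and 517 with csf1ra-/- and 1194 and 1229 in compound mutants. The 3 genotypes did not overlap, although control replicate 2 and both csf1ra-/- libraries lay within 499 to 517. Compound mutants differed from control by 1.85 ± 0.51 (SE, n = 2 per group) on the scale of log2(signal + 1), with a 95% interval from 0.71 to 2.99 and a limma adjusted p of 0.0823. This is a 3.61-fold higher level on that scale. In bulk RNA, more cells of a type and more RNA per cell cannot be told apart. Oligodendrocyte markers were higher in the same libraries, with a summed signal of 2836 and 4459 against 342 to 441 in the other 4. Macrophage and microglia markers did not move one way. Of 22, both compound mutant libraries lay above both controls for 8, of which 3 are the PU.1 genes and irf8. The rest of these are lcp1, mpeg1.1, ptprc, coro1a and slc7a7. Both libraries lay below both controls for 6, ccl34b.1, havcr1 and csf1rb among them. Over all genes tested, 58.6% were apart in either direction in this comparison. The cytoskeletal gene lcp1 stood at 1964 and 1830 against 268 and 624 in control, and the chemokine gene ccl34b.1 at 2573 and 1748 against 5623 and 9244. The part of these in the values of the factors was not tested. Over the alternative settings the adjusted p of this difference ran from 0.0244 (DESeq2) to 0.31. In the authors' deposited table spi1b was higher by a log2 fold change of 1.74 with a false discovery rate of 0.0290, and it was the 1 member under 0.05 there, beside 21.0% of all genes. Compound mutants stood 2.37-fold above csf1ra-/- on that scale, with a 95% interval of the log2 difference from 0.11 to 2.39 (limma adjusted p = 0.359). Between csf1ra-/- and control it was 0.60 ± 0.51 (limma adjusted p = 0.742), and it was 0.03 without control replicate 1 and 1.17 without control replicate 2.

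Its paralogue spi1a (ENSDARG00000067797), which also encodes a PU.1 protein, stood at 291 and 700 in the controls, 435 and 249 with csf1ra-/- and 871 and 778 in compound mutants. Both compound mutant libraries lay above the rest, and the control and csf1ra-/- values overlapped. The difference between compound mutants and control was 0.86 ± 0.56 (SE, n = 2 per group), with a 95% interval from -0.38 to 2.11 and a limma adjusted p of 0.337. Without control replicate 1 it was 0.23, and without control replicate 2 it was 1.5. Against csf1ra-/-, compound mutants differed by 1.32 ± 0.56 (limma adjusted p = 0.367).

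Comparing both PU.1 genes within a library removes the scaling of that library. Of the reads of the pair, spi1a took 56.4% (exact binomial 95% interval 54.8 to 58.0) in control replicate 1 and 58.4% (57.4 to 59.4) in control replicate 2. In csf1ra-/- it took 46.4% (45.3 to 47.5) and 32.5% (31.2 to 33.8), and in compound mutants 42.2% (41.6 to 42.8) and 38.8% (38.1 to 39.4). These intervals cover counting error only. Thus spi1a held more of the pair's reads than spi1b in both control libraries, and fewer in all 4 mutant libraries. On the log2 scale the ratio of spi1a to spi1b averaged 0.43 ± 0.08 (SD, n = 2) in the controls, -0.63 ± 0.60 with csf1ra-/- and -0.56 ± 0.14 in compound mutants, a shift of -1.02 from control to the 4 mutant libraries. An exact two-sided permutation test of 4 against 2 libraries gave p = 0.133, the smallest it can give, and 0.8 adjusted over the 6 ratios computed. The summed signal of the pair was 517 and 1198 in the controls, 938 and 766 with csf1ra-/- and 2065 and 2007 in compound mutants. How reads that match both copies were counted is not given in the sources used here.

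**Figure D2:**
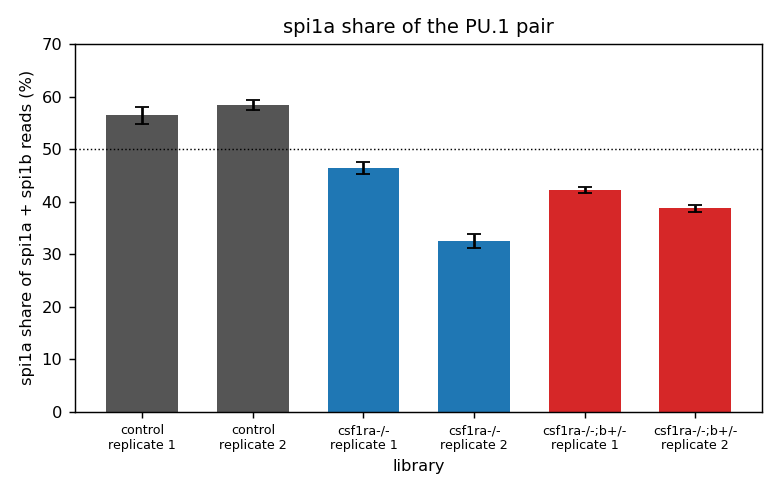
Share of the reads of spi1a and spi1b together that came from spi1a (%, bars from 0, with exact binomial 95% intervals that cover counting error only) in each of the 6 libraries. The 2 control libraries, at 56.4% and 58.4%, lie above the dotted line at 50, and the 4 mutant libraries, at 32.5% to 46.4%, lie below it.

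Transcripts of irf8 (ENSDARG00000056407), the partner of PU.1, stood at 354 and 544 in the controls, 783 and 1308 with csf1ra-/- and 1156 and 1344 in compound mutants. All 4 mutant libraries lay above both controls, and the mutant genotypes overlapped. The difference from control was 1.2 ± 0.50 (SE, n = 2 per group; 95% interval 0.10 to 2.31) in csf1ra-/- and 1.51 ± 0.50 (0.40 to 2.61) in compound mutants, with limma adjusted p of 0.458 and 0.106. Averaged over both mutant groups it was 1.35 ± 0.43 (limma adjusted p = 0.143). Between the mutant groups the difference was 0.30 ± 0.50, with an interval from -0.80 to 1.40. In the authors' deposited table irf8 was higher in compound mutants by a log2 fold change of 1.48 with a false discovery rate of 0.0646. The ratio of irf8 to spi1b within a library overlapped between control and each mutant genotype but not between the mutant genotypes, at 1.09 to 1.57 in the controls, 1.56 to 2.53 with csf1ra-/- and 0.968 to 1.09 in compound mutants.

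Transcripts of cebpa (ENSDARG00000036074), which encodes the C/EBP factor that commits progenitors to the granulocyte and monocyte line, stood at 286 and 461 in the controls, 473 and 106 with csf1ra-/- and 519 and 200 in compound mutants. Those of cebpb (ENSDARG00000042725), a C/EBP factor induced in inflammation, stood at 207 and 165, 261 and 57.6, and 460 and 128 in the same order. In both mutant genotypes replicate 1 was far above replicate 2, by 4.44 and 2.60 times for cebpa and by 4.54 and 3.61 times for cebpb, and the genotypes overlapped. The difference between compound mutants and control was -0.17 ± 0.74 for cebpa (SE, n = 2 per group; 95% interval -1.82 to 1.48) and 0.39 ± 0.78 for cebpb (-1.36 to 2.14), with limma adjusted p of 0.902 and 0.777. In csf1ra-/- against control it was -0.69 ± 0.74 and -0.59 ± 0.78 (limma adjusted p = 0.802 and 0.847), and without csf1ra-/- replicate 2 it was 0.38 and 0.50. The intervals for compound mutants span changes of more than 2-fold in either direction, so neither a change nor its absence could be read for the C/EBP genes.

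Some other genes also separated the replicates of the mutants, and they were picked out after their values were seen. The immediate early gene egr1, induced within minutes of stimulation, stood at 774 and 647 in the controls, 1211 and 362 with csf1ra-/- and 419 and 119 in compound mutants. The higher of 2 rows headed fosab, another immediate early gene, stood at 680 and 221, 1099 and 139, and 553 and 193. Replicate 1 was the higher library of every genotype for both. The lower fosab row had the other order in the controls, at 3.4 and 6.17. It stood at 16.8 and 5.96 with csf1ra-/- and 20.6 and 8.66 in compound mutants. The AP-1 gene junba, at 51.8 and 136 in the controls, also had the other order there. For the cytokine il1b the values were 28.2 and 43.5 in the controls, 49.9 and 10.8 with csf1ra-/- and 41.9 and 26.2 in compound mutants, the same order of libraries within each genotype as for cebpa. The part of these differences in the C/EBP values was not tested.

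**Figure D3:**
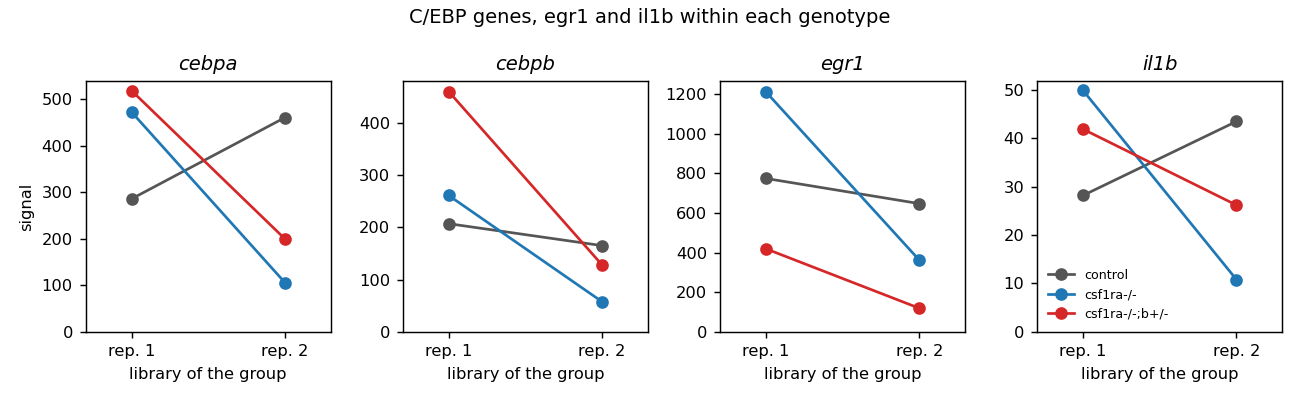
Signal (linear axes from 0) of cebpa, cebpb, egr1 and il1b in replicate 1 and replicate 2 of each genotype, joined by a line within a genotype. In both mutant genotypes replicate 1 lies above replicate 2 for all 4 genes, with cebpa at 473 against 106 for csf1ra-/- and at 519 against 200 for the compound genotype. Control replicate 1 lies below replicate 2 for cebpa and il1b.

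Transcripts of runx1 (ENSDARG00000087646) were near the limit of detection, with 4 and 0 reads in the controls, 19 and 2 with csf1ra-/- and 42 and 5 in compound mutants. In units of signal the highest library was at 3.40, and a count of 0 in control replicate 2 allows up to 3 reads. Replicate 1 was the higher library of each genotype. The difference between compound mutants and control was 1.03 ± 0.79 (SE, n = 2 per group; limma adjusted p = 0.416), on a scale that understates changes of genes this low. It was 0.23 without compound mutant replicate 1, 1.82 without compound mutant replicate 2, 1.85 and 0.43 with pseudocounts of 0.25 and 4, and 2.78 with edgeR, and none of these passed.

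**Figure D4:**
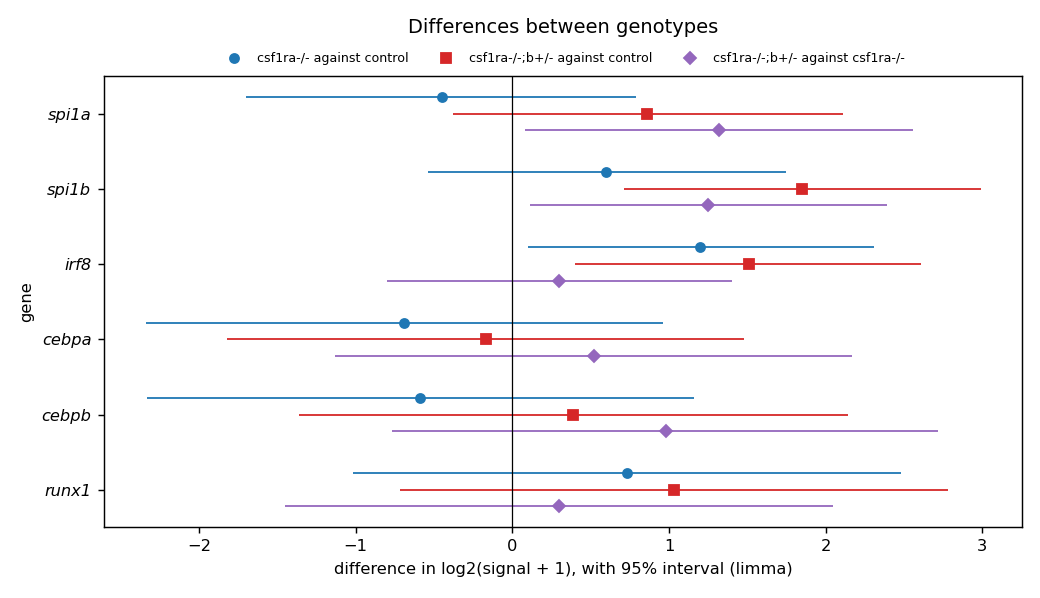
Difference in log2(signal + 1) of each factor between genotypes (x axis, limma estimate with its 95% interval before adjustment) for 3 comparisons. Intervals that lie wholly above 0 are those of spi1b and irf8 in compound mutants against control, irf8 in csf1ra-/- against control, and spi1b and spi1a in compound mutants against csf1ra-/-, and none of these passed after adjustment over all genes.

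Taking the members by whether groups overlapped, 3 of 6 had both compound mutant libraries on one side of both controls, namely spi1b, irf8 and spi1a, all above, against 58.6% of all genes tested. In csf1ra-/- against control 2 of 6 were apart, spi1b and irf8, against 38.8% of all genes, and between the mutant groups 2 of 6 were apart, spi1b and spi1a, against 49.0%. A share of 6 genes moves in large steps, so these shares cannot be told apart from the background.

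The deposited scaling bears on the levels of control replicate 1. In CPM of total reads, spi1b stood at 390 and 516 in the controls, 535 and 419 with csf1ra-/- and 983 and 985 in compound mutants, so that only the compound mutants stayed apart. On that scale irf8 stood at 613 and 562, 834 and 1059, and 952 and 1077, with all mutant libraries above control. For spi1a they were 505 and 724, 464 and 202, and 717 and 624, and control and compound mutants overlapped. On total reads the differences between compound mutants and control were 1.13 for spi1b, 0.79 for irf8 and 0.15 for spi1a. This scaling moved the median of all genes in that comparison from -0.16 to -0.70. Relative to the median the differences were 1.83, 1.49 and 0.85 in the same order, against 2.01, 1.66 and 1.02 on the deposited scale.

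The genes with profiles most like each member were sought among 4534 named genes by the root mean square difference of centred log2 profiles over the 6 libraries, where 0 is the same profile. Nearest to spi1b were ehbp1l1b at 0.06, the Toll-like receptor adaptor ticam1 at 0.08 and hcls1, a cytoskeletal protein of blood cells, at 0.10. Nearest to spi1a were cblb, a ubiquitin ligase of immune signalling, at 0.09, fam49bb at 0.12 and tspan37 at 0.15. For irf8 they were msl1a (0.12), hnrnpk (0.13) and eif1b (0.15). For cebpa they were il1b (0.22), arrdc3a and tnfsf12 (0.25 each), and for cebpb cc2d1b (0.26), lonrf1l and phax (0.34 each). Among the members, spi1b and irf8 were each other's nearest at 0.47, as were cebpa and cebpb at 0.40. The genes named above lay nearer to each of these members. For scale, the median distance of the 4534 genes from a flat profile was 0.71. Likeness was not tested.

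Relatives and partners of the factors were read from lists chosen with earlier results of these data known, and counts of these lists are by limma unless another tool is named. Limma called 1.22% of all genes tested in compound mutants against control. In compound mutants against control DESeq2 called 3 higher and 0 lower among the IRF relatives, 2 and 3 among other blood factors, 3 and 2 among the enhancer partners and 4 and 5 among the targets described below, beside its 17.0% of all genes. Of 12 tested factors of the IRF family and their BATF partners, 1 rose and 0 fell in compound mutants against control, and the median difference was 2.44, beside -0.16 for all genes. Of the 12, 10 were above 0, but the median rests in part on genes low in control. Among these, irf3 stood at 0.136 and 0.494 in control and 14.7 and 3.78 in compound mutants, and irf9 at 3.94 and 4.94 and at 29.9 and 93.6. The better read irf1b stood at 46.8 and 121 in control and 181 and 190 in compound mutants. The gene that rose was batf3, whose mammalian relative works with IRF8 in dendritic cells. It stood at 9.93 and 27.4 in the controls, 55.0 and 72.5 with csf1ra-/- and 155 and 289 in compound mutants, a difference of 3.59 ± 0.62 (SE, n = 2 per group; limma adjusted p = 0.0373). Its 3 genotypes did not overlap. Of the rest, irf7, the interferon amplifier, stood at 38.9 and 17.8, 39.8 and 104, and 160 and 332 (3.08 ± 0.67, limma adjusted p = 0.0545), and it passed in 3 of 18 alternatives, which were DESeq2 (adjusted p = 0.00134), the filter at 50 reads and the replicate block. The values of irf2 were 96.4 and 111, 141 and 115, and 328 and 282 (limma adjusted p = 0.0954), and those of irf10 were 10.4 and 11.1 in compound mutants against 1.09 and 0.247 in control (limma adjusted p = 0.0858). In csf1ra-/- against control 0 of the 12 passed, with a median of 0.48. The call of batf3 held in 11 of 18 alternatives, with adjusted p from 1.25e-05 to 0.209 and a difference from 2.90 to 4.28. It was lost with a pseudocount of 0.25, with only those 2 genotypes fitted, and without either control, either csf1ra-/- library or compound mutant replicate 2.

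Of 8 tested ETS relatives 0 passed by limma in compound mutants against control, and DESeq2 called 1, ets2 (adjusted p = 0.00703). Of these ets2 stood at 77.7 and 64.1 in the controls against 10.2 and 14.3 with csf1ra-/- and 19.7 and 15.8 in compound mutants (limma adjusted p = 0.359 and 0.100 against control), and fli1b, a factor of vessels and blood, at 66.5 and 113 against 252 and 247, and 206 and 225 (limma adjusted p = 0.403 and 0.131). None of 6 C/EBP relatives and partners and 6 RUNX relatives and cofactors passed by limma, edgeR or DESeq2, and the median differences were 0.81 and -0.32. The RUNX partner cbfb stood at 45.2 and 65.9 in the controls, 81.1 and 72.6 with csf1ra-/- and 75.7 and 27.4 in compound mutants.

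Of 24 other blood transcription factors 1 rose and 0 fell, and the median was -0.62. This was id2a, an inhibitor of basic helix-loop-helix factors, at 104 and 89.7 in the controls, 376 and 317 with csf1ra-/- and 635 and 1083 in compound mutants (3.09 ± 0.49 SE, n = 2 per group; limma adjusted p = 0.0306). Its levels did not overlap between the 3 genotypes. The call held in 12 of 18 alternatives (adjusted p 5.35e-06 to 0.209, difference 2.37 to 3.47) and was lost with only those 2 genotypes fitted and without either control, either csf1ra-/- library or compound mutant replicate 2. Not past the test were klf2b (limma adjusted p = 0.0568), at 1.09 and 1.98 in control and 24.2 and 33.4 in compound mutants, ikzf1 (0.110) and lmo2 (0.124). Of 37 partners of PU.1 at macrophage enhancers 1 rose and 0 fell, with a median of 0.33. This was junba, a subunit of the AP-1 factor, at 51.8 and 136, 171 and 162, and 679 and 497 (2.77 ± 0.56, limma adjusted p = 0.0496). That call held in 7 of 18 alternatives (adjusted p 0.000514 to 0.209, difference 2.06 to 3.46) and was lost with any of the 6 libraries left out, with only those 2 genotypes fitted, with edgeR, with a pseudocount of 0.25, with no filter and without robust estimation. Next in order of p were stat6 (limma adjusted p = 0.0992), bhlhe41 (0.101) and mef2aa (0.111).

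**Figure D5:**
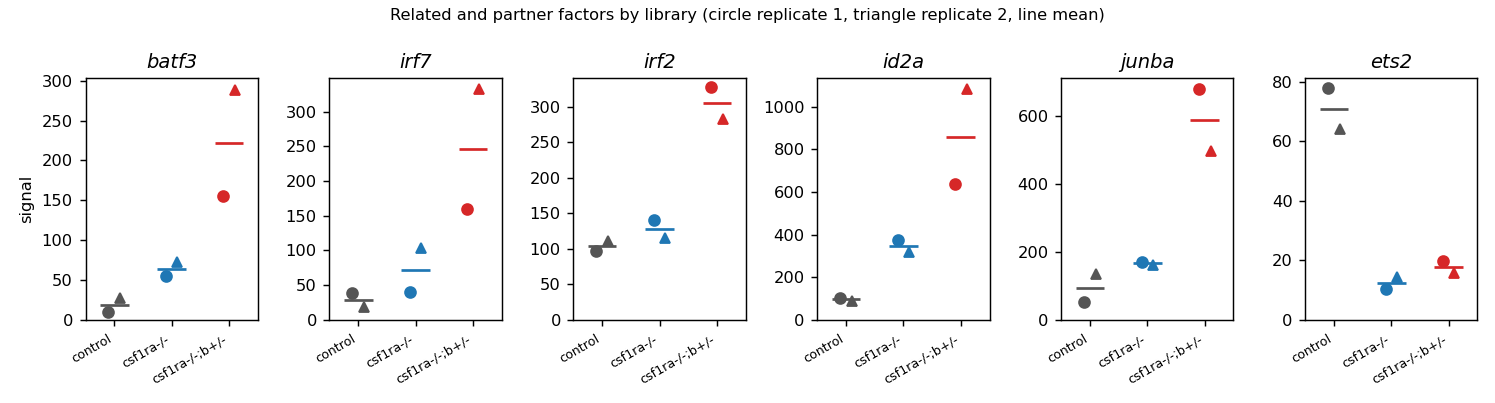
Signal (linear axes from 0) of 6 related or partner factors in the 6 libraries, with circles for replicate 1, triangles for replicate 2 and lines for the mean of 2. By limma batf3, id2a and junba passed in compound mutants against control, whereas irf7, irf2 and ets2 did not (irf7 and ets2 passed with DESeq2), and ets2 is lower in all 4 mutant libraries (10.2 to 19.7) than in control (64.1 and 77.7).

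Of the genes that PU.1 and its partners are known to activate in mammals, 36 were tested. In compound mutants against control 1 rose and 0 fell. Of the 36, 23 were above 0, with a median of 0.31, beside 46.4% and -0.16 for all genes tested. The gene that rose was the cathepsin ctss2.1, at 64.1 and 112 in the controls, 166 and 171 with csf1ra-/- and 468 and 664 in compound mutants (2.71 ± 0.50 SE, n = 2 per group; limma adjusted p = 0.0424). The call held in 10 of 18 alternatives (adjusted p 0.000126 to 0.209, difference 1.99 to 3.1) and was lost with any of the 6 libraries left out, with a pseudocount of 0.25 and with only those 2 genotypes fitted. The adaptor tyrobp, a signalling partner of microglial receptors, stood at 5.58 and 9.39, 17.8 and 55.2, and 84.7 and 56.7 (limma adjusted p = 0.0628). The tetraspanin cd9b stood at 0.952 and 11.7 in the controls, 13.4 and 0.157 with csf1ra-/- and 164 and 232 in compound mutants (limma adjusted p = 0.0621). The summed oligodendrocyte markers were likewise high only in compound mutants, and the part of other cells in cd9b was not tested. DESeq2, which called 17.0% of all genes, called ctss2.1, cyba, lcp1 and tyrobp higher and csf1ra, csf1rb, csf3r, mpeg1.2 and mpx lower. Values of csf1ra were 37.7 and 67.9 in the controls, 42.6 and 24.3 with csf1ra-/- and 18.5 and 7.73 in compound mutants. The authors' deposited table gives csf1ra a false discovery rate of 0.0511 in compound mutants against control. The receptor gene csf1rb, of which compound mutants carry 1 mutant copy, was lower in both of their libraries than in control. It stood at 329 and 173 against 901 and 1356 in control (limma adjusted p = 0.0706), and the part of the mutant copy was not tested. It passed in 6 of 18 alternatives (adjusted p 0.000603 to 0.324), and the authors' deposited table gives it a false discovery rate of 0.0113. Others of these lists passed in a few alternatives, tyrobp, cd9b and klf2b in 3 of 18 each and irf10 and stat6 in 1 of 18 each.

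Markers of other cells were read beside the factors, several of which are also used by lymphocytes, granulocytes and brain cells. The summed signal of 10 B lymphocyte markers in the table was 216 and 470 in the controls, 305 and 814 with csf1ra-/- and 436 and 624 in compound mutants. In this sum, led by igic1s1 and igl3v5, the genotypes overlapped. In compound mutants against control 9 of 11 tested rows of B lymphocyte markers were above 0, with a median of 0.64, and 0 passed by limma. The values of ighz were 3.67 and 5.19 in control, 22 and 34.2 with csf1ra-/- and 25.5 and 20.4 in compound mutants. The summed signal of 7 neutrophil markers was 175 to 325, 143 to 288 and 287 to 341. Of these mpx, the neutrophil peroxidase, had 0 reads in both compound mutant libraries, and its signal in control was 9.93 and 0.247. The marker nccrp1 stood at 211 and 230 in compound mutants and 27.6 and 172 in control. In that comparison 3 of the 7 were above 0, with a median of -0.43. Of the 12 oligodendrocyte markers in the table, 3 rose in compound mutants against control by limma, beside 1.22% of all genes. All 12 were above 0, with a median of 2.30. Sums of 10 T and natural killer cell markers were 40.4 to 40.6, 63.6 to 165 and 56.4 to 66.4. Of these 10, 4 were above 0 in compound mutants against control, with a median of -0.26. Sums of 13 neuronal markers were 61.2 to 78.2, 41.5 to 46.3 and 12.7 to 69.7. Those of 12 radial glia markers, 1 of which rose in compound mutants, were 783 to 2477, 759 to 910 and 1641 to 2022. That sum was led by glula (714 and 2392 in control). The values of glulb were 3.54 and 8.64 in control and 286 and 315 in compound mutants. Compound mutants against control had 7 of 11 tested radial glia markers above 0, with a median of 0.57. Sums of 12 vessel markers were 263 to 564, 546 to 577 and 525 to 534, of 10 epithelial markers 66.9 to 83.4, 167 to 198 and 138 to 161, and of 6 erythrocyte and thrombocyte markers 20.4 to 55.2, 7.84 to 15.1 and 4.45 to 10.6. The epithelial sum was led by krt8, at 34 and 44.2, 151 and 160, and 139 and 95.3 in the order of the genotypes. In compound mutants against control 3 of the 10 epithelial markers were above 0, with a median of -0.70. The macrophage and microglia markers, a sum led by apoeb, ccl34b.1 and lgals3bpb, came to 17212 and 32502, 17624 and 11873, and 23590 and 23158. None of these markers was at 0 in all 6 libraries, and the part of other cells in the differences of the factors was not tested.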

How the data were processed

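Per the labels' protocols, brains were digested on ice, the cells were enriched by Percoll and sorted on GFP, and a low-input cDNA kit preceded single-read sequencing. The authors deposited 1 table, made with HISAT2, edgeR and the GRCz10 assembly per the submitters' processing notes. Their versions, the annotation and how reads were counted are not given in the sources. Its signal values, headed CPM per the file headers, are reads over an effective library size. All of them (100%) were whole multiples of the value of 1 read within a tolerance of 0.001, so whole reads were recovered from them. The log2 fold changes and the false discovery rates (p-value columns) are the authors' own, as deposited. Another 15 per-sample columns were not used.

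Here limma 3.58.1 (R 4.3.3; trend and robust estimation) was fitted to log2(signal + 1) of all 6 libraries with 3 group means and no covariate, for genes that reached a signal of 1 in 2 or more libraries. The Benjamini-Hochberg adjustment ran over all genes tested, with a threshold of 0.05. Recovered reads were tested with edgeR 4.0.16 (quasi-likelihood) and DESeq2 1.42.0. Other settings were pseudocounts of 0.25 and 4, total-read, median-ratio and TMM scaling, an unfiltered table, a filter at 50 reads in 2 libraries, no robust estimation, only the groups compared, a replicate block and each library left out. The limma and edgeR fits were run on simulated reads with the same dispersion for every gene, and the DESeq2 fit was not. That run checks the code and does not show how the fits perform on these libraries. Likeness was computed for members with a mean of at least 20 reads, against genes with a mean log2 value of at least 4 and a symbol that is not clone-style, naming the 3 nearest. Named in the lists were up to 4 genes of smallest p and every gene that passed. Members, lists and tests were chosen with earlier results of these data known, and 1 of the 6 ratios after its values were seen. Some members and a list are not reported here. No sequence was used.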

Additional observations from a re-analysis of the deposited data

How the results depend on the processing

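Of 422 differences of a member under 18 alternatives, 400 kept their direction and their side of the threshold. The exception in calls was spi1b in compound mutants against control, which passed with DESeq2 (1 member called, and 0 in every other alternative). Direction turned in 4 differences outside the settings that left out a library. On total reads cebpb in compound mutants against control was -0.33. With both mutant groups averaged, spi1a was -0.07 with DESeq2 and -0.42 on total reads, and cebpb was 0.22 with edgeR. The cause was not tested. With 1 library left out, the lone library of a group being assumed to vary like the others, direction turned in 17. In csf1ra-/- against control the ranges were -1.09 to 0.18 for spi1a, -1.76 to 0.38 for cebpa and -1.67 to 0.50 for cebpb. In compound mutants against control they were -0.86 to 0.52 for cebpa and -0.53 to 1.31 for cebpb. Between the mutant groups they were -0.07 to 0.67 for irf8, -0.55 to 1.59 for cebpa, -0.11 to 2.06 for cebpb and -0.49 to 1.1 for runx1. With both groups averaged they were -0.43 to 0.84 for spi1a, -0.96 to 0.11 for cebpa and -0.64 to 0.44 for cebpb. Without control replicate 1 or replicate 2 the spi1b difference of compound mutants was 1.28 or 2.42, and that of irf8 1.2 or 1.82. Among genes of the lists, in compound mutants against control, tle3a turned to -0.29 on total reads, and with 1 library left out cbfb ranged from -0.97 to 0.47 and cebpd from -2.03 to 0.63. The log2 ratio of spi1a to spi1b in mutants minus control ran from -1.15 to -0.87, and that of cebpa to cebpb from -0.84 to 0.17.

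Counts over all genes also depended on the setting. At most 1.22% of genes passed in the main limma fit, so 0 of 6 members was the likeliest count. The member counts therefore cannot show that members depend less on the setting. In csf1ra-/- against control 0 genes passed by limma, with 2167 at an unadjusted p under 0.05. There edgeR called 3, DESeq2 259, a pseudocount of 4 gave 3, total reads 7, median-ratio 5, TMM 5, the filter at 50 reads 13, the 2 groups alone 19, the replicate block 11, and leaving out a library 0 to 12. In compound mutants against control 259 passed, and DESeq2 called 3618, a pseudocount of 0.25 gave 95, the filter at 50 reads 872, the 2 groups alone 0, the replicate block 576, and leaving out a library 0 to 137. Between the mutant groups 2 passed, and edgeR called 10, DESeq2 1459, a pseudocount of 4 gave 4, total reads 39, median-ratio 5, TMM 8, the filter at 50 reads 48, no robust estimation 5, the 2 groups alone 0, the replicate block 34, and leaving out a library 0 to 8. With both groups averaged 24 passed, and edgeR called 44, DESeq2 1739, total reads 58, TMM 42, the filter at 50 reads 240, no robust estimation 43, the replicate block 153, and leaving out a library 0 to 92.

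Whether the replicate numbers of the titles pair the libraries was not established. Correlations of same-numbered libraries' deviations from their group means were -0.0032, 0.0548 and 0.0276 across 6040 tested genes of higher mean signal. Such values over many genes cannot show whether some genes share an order of replicates. The block called 0 members in each comparison, as did the fit without it. Over all genes it called 11, 576, 34 and 153, against 0, 259, 2 and 24 without it. The filter at 50 reads left out runx1, and the setting of only the groups compared gives no separate value with both mutant groups averaged.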
